A study of Mus musculus with 6 samples.

Results

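The genes described here are 44 genes of the extracellular matrix and of stromal cells, out of 23107 genes in the deposited count table. They were chosen by symbol, with their levels in these libraries and their difference between tumour genotypes already known. That difference is therefore described below and is not offered as a test of the list. All 44 symbols were found in the table. The RNA came from 6 libraries of myeloid cells, sorted as CD11b+ Gr-1+ from dissociated gliomas of mice on a C57BL/6 background after Percoll enrichment of immune cells. In 3 libraries (wtIDH1) the tumour carried wild-type IDH1, and in 3 (mIDH1) it carried mutant IDH1. IDH1 encodes an isocitrate dehydrogenase of the cytosol, and tumours with the mutated enzyme accumulate the metabolite 2-hydroxyglutarate. The labels do not name the mutation, the driver of the tumours, the age of the mice or whether animals were pooled, and they do not say that replicates were separate mice. P-values therefore measure only how far these libraries scatter, and that scatter may be technical.

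The extracellular matrix is a network of collagens, glycoproteins and proteoglycans. Fibrillar collagens form the fibres of connective tissue. Type IV collagen, laminins, nidogens and perlecan form basement membranes, which in the brain lie around blood vessels. Most collagen fibres are made by fibroblasts, while monocytes and macrophages are known to make soluble and adhesive matrix proteins such as fibronectin, thrombospondin-1 and versican. A sort for myeloid cells should remove fibroblasts, pericytes, endothelial cells and tumour cells.

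Promoter sequences were looked up for the members, because several of them were higher in mIDH1 together. RefSeq promoters (GRCm38.p6, the build of the mm10 files) were found for 31 of the 44, one of them, Ptrf, under its newer symbol Cavin1. Shown are the 250 bases upstream of the start for the 3 members with the largest excess in mIDH1 among those that averaged at least 10 CPM there (the counts-per-million unit, scaled between libraries by TMM, a method that trims extreme genes) and whose window held no annotated exon. Col3a1 lies at chr1:45311288-45311537 on the plus strand, Crispld2 at chr8:119992188-119992437 on the plus strand, and Igfbp3 at chr11:7213924-7214173 on the minus strand. Capitals mark matches, on either strand, to any of 5 motifs, and each of these windows held at most 1 match. The motifs were TATAAA as the core of a TATA box, GGGCGG as a GC box, TGANTCA as the AP-1 motif, CACGTG as an E-box and TTCCNGGAA as the STAT motif. Matches were counted anywhere in the window and variants were not. A match therefore does not show a working element, nor does its absence show that there is none.
Col3a1: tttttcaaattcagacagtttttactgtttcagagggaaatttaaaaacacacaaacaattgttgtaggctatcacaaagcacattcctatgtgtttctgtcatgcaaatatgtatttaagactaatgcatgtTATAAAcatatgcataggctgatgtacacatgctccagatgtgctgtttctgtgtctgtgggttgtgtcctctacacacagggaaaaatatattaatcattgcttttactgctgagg
Crispld2: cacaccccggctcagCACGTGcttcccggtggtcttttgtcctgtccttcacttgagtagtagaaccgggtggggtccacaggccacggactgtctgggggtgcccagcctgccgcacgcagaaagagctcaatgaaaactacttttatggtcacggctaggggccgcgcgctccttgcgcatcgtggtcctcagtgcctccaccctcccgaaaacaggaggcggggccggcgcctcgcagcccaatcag
Igfbp3: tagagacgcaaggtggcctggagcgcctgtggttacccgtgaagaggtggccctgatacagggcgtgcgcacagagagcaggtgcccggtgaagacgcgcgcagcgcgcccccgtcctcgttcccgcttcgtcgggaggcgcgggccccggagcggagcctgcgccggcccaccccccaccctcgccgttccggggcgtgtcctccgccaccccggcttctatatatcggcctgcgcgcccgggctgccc
The Col3a1 window held 1 TATAAA, a motif found in 12.4% of 32851 such windows of all genes. Crispld2 held 1 CACGTG, found in 6.02% of windows, and Igfbp3 held none of the 5 motifs. The 3 windows also differ in CG pairs, which are 0 in Col3a1, 18 in Crispld2 and 32 in Igfbp3, against a median of 6 over all windows and 10 over the 37 windows of members. GGGCGG was found in 32.7% of all windows and in 20 of the 37, TGANTCA in 6.75% and in 1, and TTCCNGGAA in 0.913% and in 0. Among the 37 windows of members, the TATA box core was found in 7 and the E-box in 1. Thus no motif of the 5 was shared by the 3 upstream windows shown. That holds for these 3 only, because Thbs2, the next member under the same rule, held 1 TATA box core, as Col3a1 did.

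Library totals ranged from 19728204 to 35093267 counts. Levels are given in this CPM unit. A count of 0 still allows 3 counts, which is 0.0855 to 0.152 CPM depending on the library. Of 12950 genes tested with edgeR, 1058 had an adjusted p under 0.05, with 360 higher and 698 lower in mIDH1, or 483 and 593 if only library totals set the scale. All 11 measured myeloid genes averaged above 1 CPM in both groups, a low bar that does not show how pure the gated cells were. Their sum, led by Lyz2, lay between 11680 and 15130 CPM in wtIDH1 and between 11210 and 15530 CPM in mIDH1. Means in wtIDH1 and mIDH1 ran from 4.31 and 10.2 CPM for S100a8 to 6142 and 6071 CPM for Lyz2. Those of Itgam were 1892 and 2071 CPM, and those of Csf1r 1838 and 1506 CPM. Of these 11, edgeR called Cd68 higher and Csf3r and Ly6c2 lower in mIDH1. From wtIDH1 to mIDH1 their means went from 181 to 289 CPM, from 260 to 148 CPM and from 152 to 45.0 CPM. Cd68 and Csf3r were lost when wtIDH1 replicate 1, 2 or 3 was left out, and Cd68 also without mIDH1 replicate 2. Among matrix genes mIDH1 replicate 3 stood apart from the other mIDH1 libraries, with low Vcan and Tnc and high Postn and Col6a3, and values without it are given beside the members it moved most. In bulk RNA, fewer cells of a type and less RNA per cell cannot be told apart.

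Of the 44 members, 35 passed the filter on low counts and 9 did not. Among the 35, 24 had a positive log2 fold change (mIDH1 minus wtIDH1) and 11 a negative one, with a median of 0.82. Over all genes tested 53.4% were positive and the median was 0.06. In the fit over all genes 9 members were called higher and none lower, where 8.17% of all tested genes were called, 2.78% as higher and 5.39% as lower. At an unadjusted p under 0.05 edgeR counted 15 members, 3 of them lower, where 22.2% of all tested genes were counted, 12.1% as lower. With adjusted p-values DESeq2 called 12 members higher and 2 lower, where it called 12.4% of all genes, 5.07% as higher and 7.36% as lower. In 13 members every mIDH1 library was above every wtIDH1 library, as in 14% of all tested genes, and in 4 members, 1 of them untested, every mIDH1 library was below, as in 14.9%. These counts describe the choice of members, and because a gene that is high in only 1 group passes the filter through that group, they support nothing further. The 9 called members are Col3a1, Col6a1, Lamb1, Lamc1, Hspg2, Igfbp3, Igfbp4, Crispld2 and Ptrf. When wtIDH1 replicate 1, 2 or 3 or mIDH1 replicate 2 was left out, 6 of them were called, and the 3 that were lost were Col6a1, Lamc1 and Igfbp3. With mIDH1 replicate 1 or mIDH1 replicate 3 left out, 8 of the 9 were called and Col6a1 was lost, while Thbs1 was then called lower in the first case and Vcan higher and Fn1 lower in the second.

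**Figure D1:**
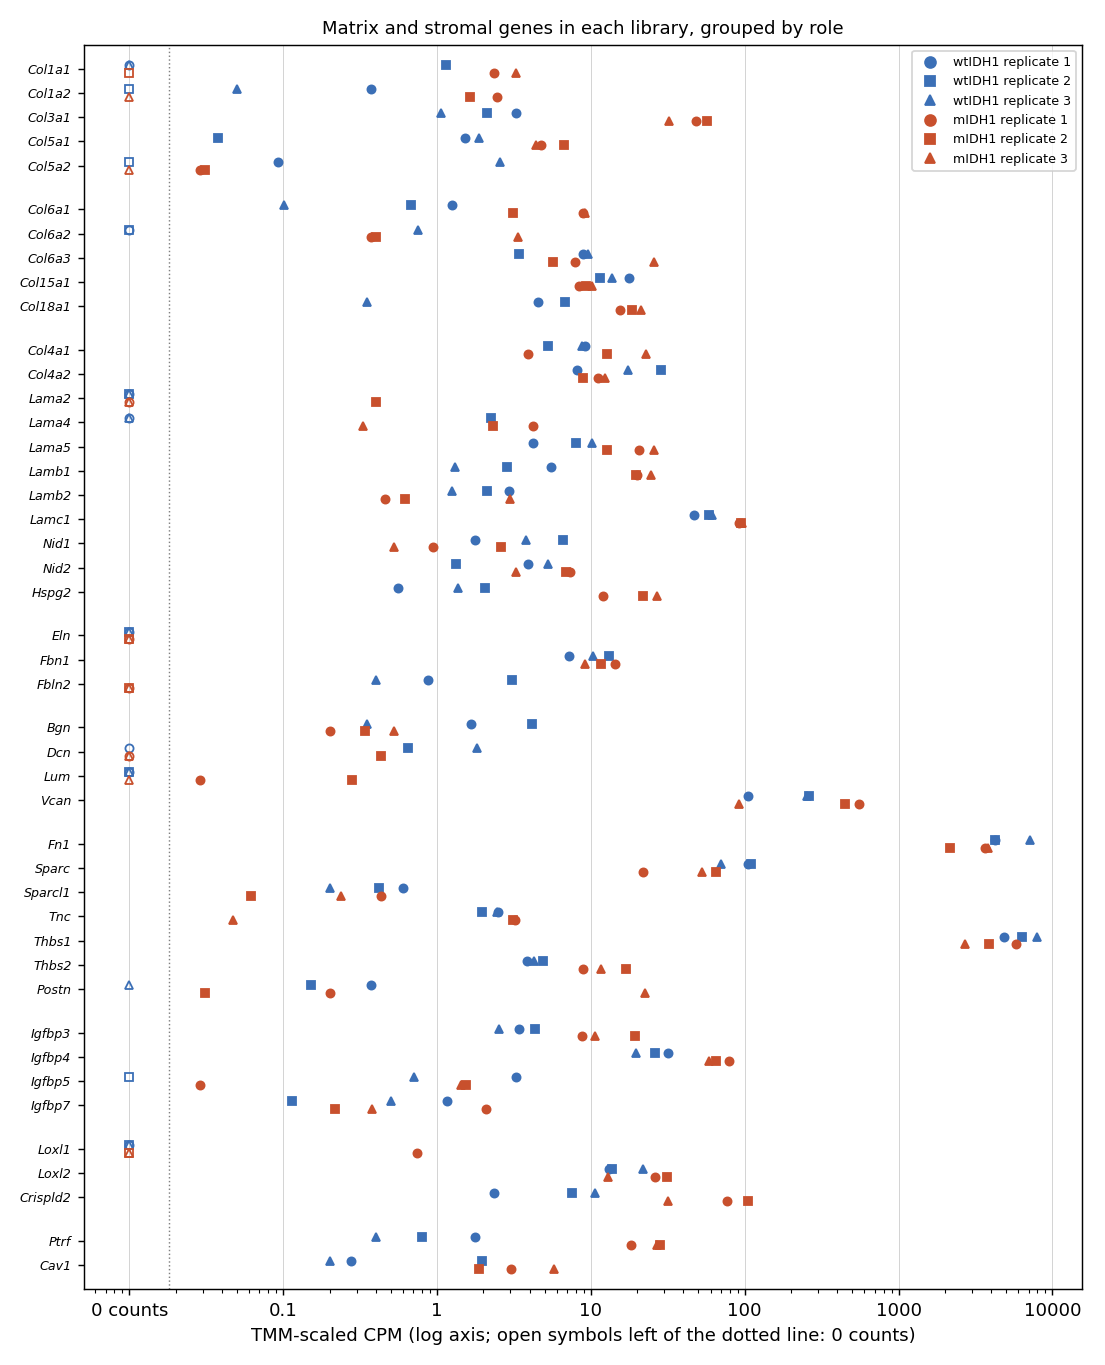
TMM-scaled CPM on a log axis for the 44 members, grouped by role, with 1 symbol per library (blue wtIDH1, red mIDH1; open symbols at the left are 0 counts). Fn1 and Thbs1 lie above 2000 CPM in every library, most other members lie under 100 CPM, and Eln has 0 counts throughout.

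Fibronectin and thrombospondin-1 made up most of the signal of the 44 members, though not of all matrix genes. Tgfbi, a matrix gene that is not a member, averaged 6430 CPM in wtIDH1 and 6532 CPM in mIDH1. Together Fn1 and Thbs1 held 94.6 to 96.6% of the summed CPM of the 44 members in wtIDH1 libraries and 84.8 to 90.8% in mIDH1 libraries. All 44 summed to 12110 ± 3197 CPM in wtIDH1 and 8272 ± 1913 CPM in mIDH1 (SD, n = 3 each). The other 42 moved the opposite way, from 514 ± 100.1 to 946 ± 245 CPM, a ratio of 1.84. The fibrillar collagens had a ratio of 11.6 and the caveolar genes one of 15.6, against 1.83 for basement membrane genes, 2.64 for the IGF binding proteins and 0.632 for the adhesive and matricellular genes. Single genes carried the largest of these ratios. Without Col3a1 the other 4 fibrillar chains summed to 2.55 ± 1.72 CPM in wtIDH1 and 8.53 ± 0.96 CPM in mIDH1, a ratio of 3.35, and Ptrf gave 24.5 of the 28.1 CPM of the caveolar genes in mIDH1. The sums thus have different directions because 2 abundant genes were lower in mIDH1 and many scarce ones higher.

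Fn1 encodes fibronectin, the adhesive glycoprotein that links integrins to collagen. It was at 4249, 4257 and 7189 CPM in wtIDH1 and at 3620, 2159 and 3833 CPM in mIDH1. The groups did not overlap, although the nearest libraries, at 3833 and 4249 CPM, were close beside the spread within each group. The log2 fold change was -0.71 ± 0.25 (SE). Thbs1 encodes thrombospondin-1, which binds CD36 and CD47 and activates latent TGF-beta. Its levels were 4814, 6342 and 7936 CPM in wtIDH1 and 5774, 3888 and 2706 CPM in mIDH1, with overlapping groups and a log2 fold change of -0.63 ± 0.26 (SE). Per kb of exon, Thbs1 was the highest member, at 1088 CPM per kb in wtIDH1 and 705 in mIDH1, followed by Fn1 at 617 and 378. The next members were far lower in this order, at 34.95 CPM per kb for Sparc in wtIDH1 and 27.3 for Vcan in mIDH1. Fn1 is annotated on chromosome 1 from 71585520 to 71653200 and Thbs1 on chromosome 2 from 118111876 to 118127133.

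The other matricellular members, proteins that tune how cells meet the matrix without building it, did not share a direction. Sparc, which binds collagen and calcium, was at 105, 111 and 69.8 CPM in wtIDH1 and at 21.9, 65.0 and 52.5 CPM in mIDH1. Its highest mIDH1 library lay just under its lowest wtIDH1 library (log2 fold change -1.03 ± 0.33 SE). Thbs2, a thrombospondin related to Thbs1, went the opposite way. It was at 3.83, 4.85 and 4.28 CPM in wtIDH1 and 8.89, 17.03 and 11.6 CPM in mIDH1, and every mIDH1 library was above every wtIDH1 library (1.53 ± 0.47 SE). Tnc, the tenascin-C gene of injured tissue and glioma, was between 1.97 and 2.49 CPM in wtIDH1, at 3.21 and 3.10 CPM in 2 mIDH1 libraries and at 0.0475 CPM, a single count, in mIDH1 replicate 3. Its log2 fold change was -0.12 ± 1.17 (SE), or 0.45 without that library.

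Postn and Sparcl1 did not pass the filter. Postn, the gene of periostin, a protein of fibroblasts, had 8, 4 and 0 counts in wtIDH1 and 7, 1 and 473 counts in mIDH1. Nearly all of its counts were thus in mIDH1 replicate 3, and no difference between genotypes can be drawn from it. Sparcl1, an astrocyte and vascular relative of Sparc, had 2 to 15 counts per library in both genotypes.

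Type III collagen stood out among the fibrillar collagens, while the 2 chains of type I collagen were almost absent. Col3a1, on chromosome 1 from 45311538 to 45349706, was at 3.28, 2.12 and 1.06 CPM in wtIDH1 and at 48.2, 57.3 and 32.1 CPM in mIDH1. The lowest mIDH1 library was far above the highest wtIDH1 library, and the fitted difference was 21.2-fold (log2 fold change 4.41 ± 0.43 SE). Col1a1 had 0, 30 and 0 counts in wtIDH1 and 82, 0 and 69 in mIDH1. Col1a2 had 8, 0 and 1 counts in wtIDH1 and 86, 53 and 0 in mIDH1. Both type I chains thus had 0 counts in at least 1 library of each genotype, and the libraries with 0 counts of Col1a1 were not those with 0 counts of Col1a2.

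Per kb of exon, Col3a1 averaged 8.24 ± 2.29 CPM in mIDH1 libraries, against 0.317 ± 0.285 for Col1a1 and 0.256 ± 0.235 for Col1a2 (SD, n = 3). The ratio of these means was 26.0 for Col3a1 over Col1a1 and 32.1 for Col3a1 over Col1a2. Type III collagen is a homotrimer and needs no partner chain. The type I chains also had higher means in mIDH1, with overlapping groups. From wtIDH1 to mIDH1, mean Col1a1 went from 0.379 to 1.88 CPM and mean Col1a2 from 0.140 to 1.37 CPM. Which cells the Col3a1 RNA came from was not tested. Col5a2 lies 24.6 kb from Col3a1 on the opposite strand of chromosome 1, and its values did not follow those of its neighbour. It had 2, 0 and 51 counts in wtIDH1 and 1, 1 and 0 in mIDH1. Its partner chain Col5a1 was at 1.52, 0.0379 and 1.86 CPM in wtIDH1 and at 4.70, 6.70 and 4.37 CPM in mIDH1, with no overlap (2.21 ± 1.06 SE).

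**Figure D2:**
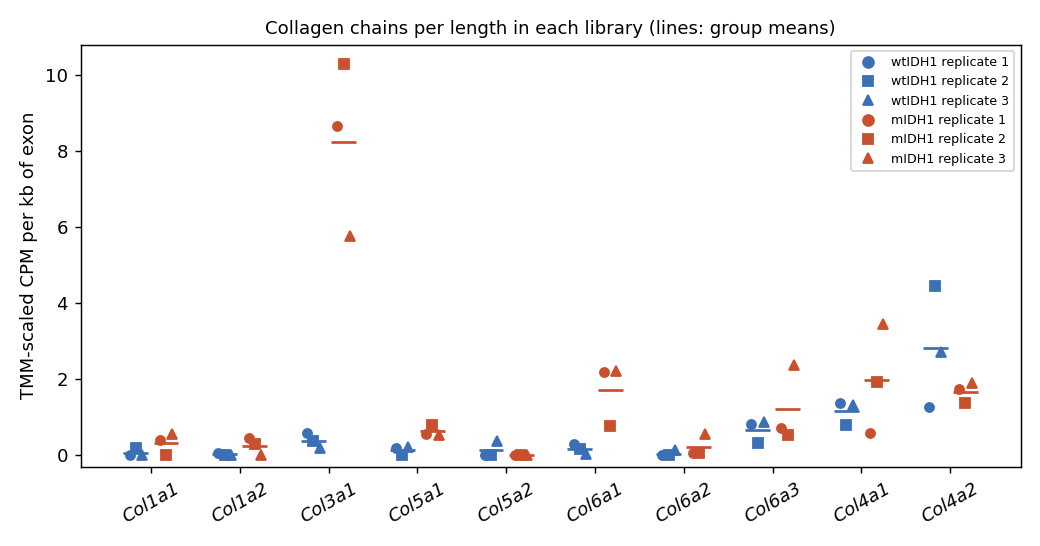
TMM-scaled CPM per kb of exon (linear axis) for 10 collagen chains, with 1 symbol per library and lines at the group means (n = 3). Col3a1 averages 8.24 in mIDH1 and 0.387 in wtIDH1, while Col1a1, Col1a2 and Col5a2 stay under 1 in all libraries.

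The chains of type VI collagen, a beaded filament collagen that macrophages can also make, differed from each other. Col6a1 was at 1.25, 0.682 and 0.101 CPM in wtIDH1 and at 8.95, 3.13 and 9.12 CPM in mIDH1, with no overlap (log2 fold change 3.37 ± 0.95 SE). Col6a2, 85.2 kb away on chromosome 10, had 0, 0 and 15 counts in wtIDH1 and 13, 13 and 71 in mIDH1, and its log2 fold change of 2.45 was 0.63 without mIDH1 replicate 3. Col6a3 was at 8.87, 3.41 and 9.52 CPM in wtIDH1 and at 7.92, 5.71 and 25.8 CPM in mIDH1. Its excess rested on mIDH1 replicate 3, without which the log2 fold change moved from 0.85 to -0.09.

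Col15a1 and Col18a1 encode the multiplexin collagens of the basement membrane zone, and they lay on opposite sides. Col18a1, whose cleaved end is endostatin, was at 4.53, 6.79 and 0.353 CPM in wtIDH1 and at 15.5, 18.4 and 21.2 CPM in mIDH1 (2.23 ± 0.71 SE). Col15a1 was at 17.6, 11.4 and 13.8 CPM in wtIDH1 and at 8.41, 9.34 and 10.2 CPM in mIDH1, narrowly below (-0.62 ± 0.38 SE). Neither was called in the fit over all genes, and Col18a1 was called in 3 of 15 alternative settings.

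Among basement membrane genes, the laminin chains beta 1 and gamma 1 and the perlecan gene were higher in mIDH1. Laminins are trimers of an alpha, a beta and a gamma chain. The gamma chain gene Lamc1 was the highest of the 6 laminin genes per length, and was at 46.8, 58.8 and 61.3 CPM in wtIDH1 and 91.3, 94.4 and 96.7 CPM in mIDH1. The mIDH1 libraries were tight around their mean and all above the wtIDH1 libraries (0.76 ± 0.18 SE). Lamb1 was at 5.50, 2.84 and 1.31 CPM in wtIDH1 and 19.8, 19.6 and 24.7 CPM in mIDH1 (2.73 ± 0.51 SE). Lamb2, the other beta chain, was at 2.96, 2.12 and 1.26 CPM in wtIDH1 and 0.459, 0.620 and 2.99 CPM in mIDH1. Per kb, Lamb1 over Lamb2 was thus 1.47 on the group means of wtIDH1 and 15.2 on those of mIDH1, with 7.94 to 41.6 in single mIDH1 libraries and 35.2 on the means without mIDH1 replicate 3. The log2 fold change of Lamb2 was -0.64 ± 1.15 (SE), or -1.96 without that library.

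Of the alpha chains only Lama5 had more than 10 counts in every library. It was at 4.203, 8.00 and 10.1 CPM in wtIDH1 and 20.7, 12.8 and 25.6 CPM in mIDH1, with no overlap (1.40 ± 0.43 SE). Lama4, a chain of vessel walls, had 0, 59 and 0 counts in wtIDH1 and 147, 75 and 7 in mIDH1. Lama2 had 0 counts in wtIDH1 and 0, 13 and 0 in mIDH1. Lama2 was thus detected in 1 library, and Lama4 was at 0 in 2 of the 3 wtIDH1 libraries.

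Hspg2 encodes perlecan, the heparan sulfate proteoglycan of basement membranes (chromosome 4, 137468769 to 137570630). It was at 0.554, 2.05 and 1.36 CPM in wtIDH1 and at 12.1, 21.9 and 26.9 CPM in mIDH1, a fitted difference of 15.2-fold (3.93 ± 0.57 SE). The nidogens, which join laminin to type IV collagen, showed no such gap. Nid1 was at 1.75, 6.60 and 3.78 CPM in wtIDH1 and 0.947, 2.61 and 0.523 CPM in mIDH1, and Nid2 at 3.88, 1.33 and 5.29 CPM against 7.29, 6.86 and 3.28 CPM. Both overlapped between genotypes, with log2 fold changes of -1.57 ± 0.97 and 0.73 ± 0.71 (SE).

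Col4a1 and Col4a2, the main chains of type IV collagen, start head to head on chromosome 8 and are usually made together. Their annotated first bases overlap by 22 bases on opposite strands, at chr8:11312805-11312826 in GRCm38.p6, shown here on the plus strand.
Col4a1 and Col4a2: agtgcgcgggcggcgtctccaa
Despite this shared start the 2 chains did not move together. Col4a1 was at 9.14, 5.27 and 8.71 CPM in wtIDH1 and 3.90, 12.7 and 22.9 CPM in mIDH1. Col4a2 was at 8.17, 28.7 and 17.5 CPM in wtIDH1 and 11.2, 8.87 and 12.3 CPM in mIDH1. Per kb, Col4a2 over Col4a1 ranged from 0.551 to 5.59 over the 6 libraries. The log2 fold changes were 0.77 ± 0.57 and -0.75 ± 0.44 (SE), with overlapping groups for both, and that of Col4a1 was 0.11 without mIDH1 replicate 3.

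**Figure D3:**
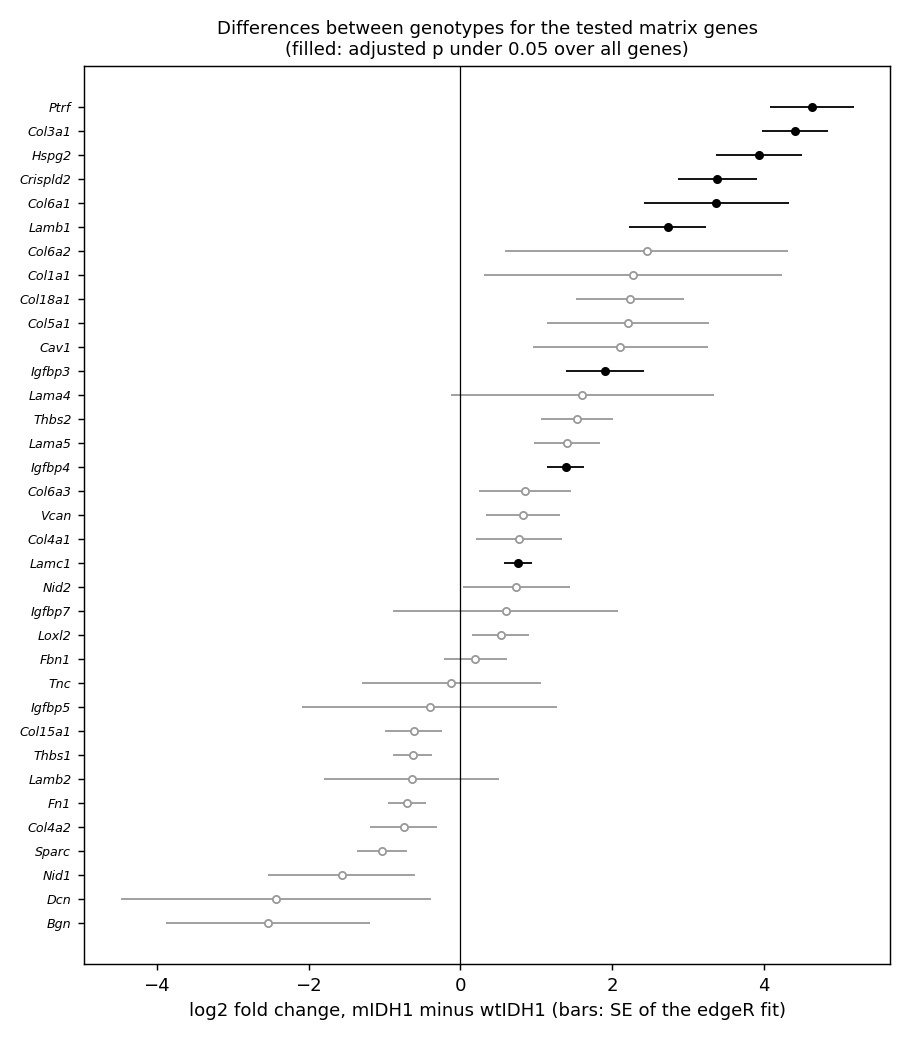
Log2 fold change (mIDH1 minus wtIDH1) with its SE for the 35 members that passed the filter, ordered by size. Filled points mark the 9 members with an adjusted p under 0.05 in edgeR's fit over all genes, all to the right of 0, led by Ptrf at 4.63 and Col3a1 at 4.41.

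The 3 members of elastic fibres were low or absent. Eln, the elastin gene, had 0 counts in all 6 libraries. Fbn1, the fibrillin of microfibrils, was at 7.25, 13.1 and 10.3 CPM in wtIDH1 and 14.3, 11.6 and 9.22 CPM in mIDH1, with mixed groups (0.20 ± 0.41 SE). Of its exonic bases, 20.3% also belong to Gm9913 on the other strand, and the library kit does not mark strand. Fbln2, a fibulin gene, was found only in wtIDH1 libraries, with 19, 81 and 8 counts against 0 in each mIDH1 library. Against the 3 counts that 0 allows over the whole mIDH1 group, this was at least 44.6-fold lower in mIDH1, a bound that covers counting error only. Most of the wtIDH1 counts were in replicate 2, without which the bound was 18.5-fold.

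Among proteoglycans the versican gene was abundant and the fibroblast proteoglycans were nearly absent. Vcan, a large hyaluronan-binding proteoglycan that monocytes make, was at 105, 263 and 252 CPM in wtIDH1 and at 553, 452 and 92.1 CPM in mIDH1. Replicates 1 and 2 of mIDH1 were above all wtIDH1 libraries and replicate 3 was below all of them (0.82 ± 0.49 SE, or 1.28 without mIDH1 replicate 3). Dcn, the decorin gene of fibroblasts, had 0, 17 and 36 counts in wtIDH1 and 0, 14 and 0 in mIDH1. Lum, the lumican gene 47.0 kb from Dcn, had 0 counts in wtIDH1 and 1, 9 and 0 in mIDH1. Bgn, the biglycan gene, had 36, 110 and 7 counts in wtIDH1 and 7, 11 and 11 in mIDH1. Thus none of the 3 small leucine-rich proteoglycans was above wtIDH1 in mIDH1 beyond its spread.

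IGF binding proteins carry and release insulin-like growth factors. Igfbp4 was the most abundant, at 31.9, 26.0 and 19.5 CPM in wtIDH1 and 78.9, 64.9 and 58.5 CPM in mIDH1, with a wide gap between the groups (1.38 ± 0.24 SE). Igfbp3 was at 3.42, 4.36 and 2.52 CPM in wtIDH1 and 8.69, 19.2 and 10.6 CPM in mIDH1 (1.90 ± 0.51 SE). Igfbp5 had 71, 0 and 14 counts in wtIDH1 and 1, 50 and 30 in mIDH1. Igfbp7, a vascular member, had 25, 3 and 10 counts in wtIDH1 and 72, 7 and 8 in mIDH1, and 7.03% of its exonic bases overlap Polr2b on the other strand. Both of these scarce members were spread as widely within a genotype as between them.

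Of the crosslinking and secreted members, Crispld2 differed most. Crispld2 encodes a secreted protein that binds lipopolysaccharide (chromosome 8, 119992438 to 120052793). Its levels were 2.36, 7.51 and 10.6 CPM in wtIDH1 and 76.4, 105 and 31.8 CPM in mIDH1, a fitted difference of 10.4-fold (3.38 ± 0.52 SE). Every mIDH1 library was at least 31.8 CPM, though mIDH1 replicate 3 was the lowest of them. Loxl2, a lysyl oxidase-like enzyme that crosslinks collagen, was at 13.1, 13.8 and 21.7 CPM in wtIDH1 and 25.9, 31.2 and 12.9 CPM in mIDH1 (0.53 ± 0.37 SE). Loxl1, its relative of elastic fibres, had 26 counts in mIDH1 replicate 1 and 0 elsewhere.

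Ptrf and Cav1 encode cavin-1 and caveolin-1, which together form caveolae, the small pits of the plasma membrane. Ptrf had the largest fitted difference of all tested members. It was at 1.75, 0.796 and 0.403 CPM in wtIDH1 and at 18.3, 28.1 and 27.1 CPM in mIDH1, or 24.7-fold (4.63 ± 0.55 SE; chromosome 11, 100956733 to 100970887). Cav1 was lower in level, at 0.277, 1.97 and 0.202 CPM in wtIDH1 and 3.01, 1.86 and 5.80 CPM in mIDH1. Its groups overlapped by 1 library on each side (2.104 ± 1.15 SE), and the log2 fold change was 3.86 without wtIDH1 replicate 2, the highest wtIDH1 library.

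The markers of other cell types that make matrix were measured beside these members, and their part in the differences was not tested. Of 15 fibroblast markers that are not members, Dpt, Mfap5, Tcf21 and Clec3b were at 0 in all libraries and 8 were under 1 CPM in both groups. Their sum was 93.8 to 164 CPM in wtIDH1 and 171 to 234 CPM in mIDH1, mostly from Thy1, which lymphocytes also express. Without Thy1 the sum was 21.6 to 28.1 CPM in wtIDH1 and 24.9 to 63.7 CPM in mIDH1. Pdgfra, a receptor of fibroblasts and glial progenitors, averaged 0.216 ± 0.209 CPM over wtIDH1 libraries and 3.08 ± 2.15 CPM over mIDH1 libraries (SD, n = 3), and Col14a1, a fibroblast collagen, reached 37.9 CPM in mIDH1 replicate 3. Twist2, a transcription factor of mesenchymal cells, had 0, 1 and 0 counts in wtIDH1 and 35, 41 and 20 in mIDH1. Prrx1, another such factor, was at 4.29, 1.06 and 0.705 CPM in wtIDH1 and at 7.72, 7.66 and 4.89 CPM in mIDH1. In both, as in Pdgfra, every mIDH1 library was above every wtIDH1 library. Not all of the list rose: Pi16 and Fap had near-equal means, at 12.5 and 2.14 CPM in wtIDH1 and 12.2 and 2.07 CPM in mIDH1. Of the 15 markers 7 were tested by edgeR and none passed, with the smallest adjusted p at 0.0782 (Twist2), and 8 were too low to be tested.

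Of 13 mural cell markers, Rgs5, Des and Higd1b were at 0 in all libraries. The sum was 109 to 123 CPM in wtIDH1 and 228 to 304 CPM in mIDH1, and without Anpep, which myeloid cells also express and which edgeR called higher, 6.83 to 15.97 and 7.46 to 19.4 CPM. Pdgfrb had 8, 0 and 3 counts in wtIDH1 and 28, 48 and 8 in mIDH1. Cspg4 had 3, 4 and 0 against 7, 44 and 12, and Kcnj8 1, 3 and 0 against 6, 54 and 14. Abcc9 averaged 1.01 CPM in wtIDH1 and 2.88 CPM in mIDH1. In each of these every mIDH1 library was above every wtIDH1 library in CPM, but only Abcc9 was tested, and it was not called. Mean Tagln fell from 6.10 to 2.12 CPM and mean Notch3 from 1.02 to 0.766 CPM, neither of them called. Of 15 endothelial markers, Emcn, Robo4 and Sox17 were at 0 in all libraries and 8 were under 1 CPM in both groups. The sum was higher in wtIDH1 (185 to 234 CPM) than in mIDH1 (101 to 163 CPM), mostly from Pecam1, Flt1, Kdr and Eng. Without Pecam1 it was 114 to 143 and 43.6 to 94.4 CPM. Mean Flt1 fell from 61.99 to 25.04 CPM, while mean Eng was 20.98 CPM in wtIDH1 and 20.12 CPM in mIDH1. Cldn5, Tie1, Tek, Erg and Esam were among the 8 under 1 CPM and did not carry the fall in the sum. None of the 15 endothelial markers was called, and whether the share of endothelial cells differed was not tested. Of 17 glioma and neural markers none was at 0 in all libraries, and the sum was 103 to 112 CPM in wtIDH1 and 102 to 127 CPM in mIDH1, mostly from Mbp. Without Mbp it was 23.4 to 27.9 CPM in wtIDH1 and 31.8 to 43.6 CPM in mIDH1, so that every mIDH1 library was above every wtIDH1 library. Sox2 was the 1 gene of that list that passed, with a mean of 0.0756 CPM over wtIDH1 and 4.01 CPM over mIDH1 libraries (edgeR adjusted p = 0.0368). It passed in 1 of the 6 fits with a library left out, that without mIDH1 replicate 1. Other genes of the list went both ways without being called. From wtIDH1 to mIDH1, mean Gfap fell from 2.86 to 0.667 CPM and Ptprz1 from 5.06 to 1.03 CPM. Nes rose from 2.91 to 8.96 CPM and Tubb3 from 0.290 to 4.64 CPM. Of 10 platelet markers Pf4 and Ppbp rose (edgeR adjusted p = 0.00779 and 0.0363), though Ppbp passed in none of the 6 fits with a library left out. The platelet sum was 11.2 to 17.4 CPM in wtIDH1 and 22.0 to 55.5 CPM in mIDH1, but without Pf4 it was 5.59 to 10.2 and 4.25 to 10.4 CPM, which overlap. Gp9, a platelet surface glycoprotein, went the opposite way, with 1, 18 and 67 counts in wtIDH1 and 0 in mIDH1. Some defining genes of fibroblasts, pericytes and endothelium were thus at 0 in all 6 libraries and others were detected. Of those detected, Pdgfra, Twist2, Prrx1 and Pdgfrb, among others, were higher in every mIDH1 library than in any wtIDH1 library. Others, such as Pi16, Fap and Tagln, were not. Col3a1, Lamb1, Hspg2 and Ptrf were between 12.1 and 57.3 CPM in mIDH1. Which cells the RNA of these members came from was not tested.

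**Figure D4:**
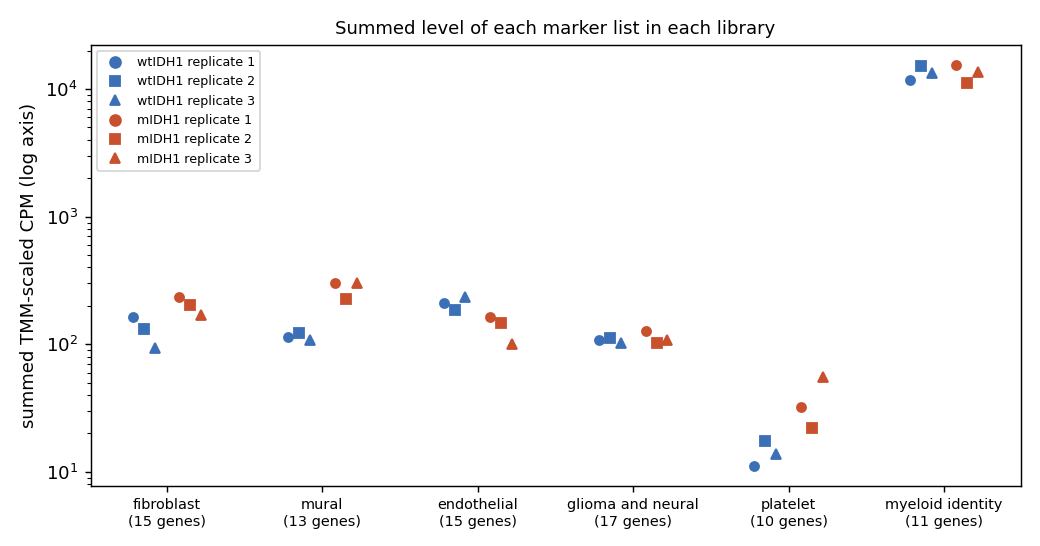
Summed TMM-scaled CPM (log axis) of each marker list in each library (blue wtIDH1, red mIDH1). The 11 myeloid genes sum to at least 11210 CPM in every library, and each other list sums to at most 304 CPM, with fibroblast, mural and platelet sums higher and endothelial sums lower in mIDH1. Each of these 3 higher sums is led by 1 gene (Thy1, Anpep and Pf4), without which the groups overlap.

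Genes around the members in the matrix pathway moved both ways. Of 68 other matrix genes 29 were tested, 3 rose and 1 fell, and the median log2 fold change was 0.49. For this list and the collagen and receptor lists below, the shares over all tested genes were 2.78% called higher and 5.39% called lower. The median over all tested genes was 0.06. Ecm1, a secreted matrix protein, averaged 318 ± 65.7 CPM in wtIDH1 libraries and rose to 668 ± 229 CPM (SD, n = 3), a log2 fold change of 1.07 ± 0.24 (SE, edgeR adjusted p = 0.0164). Agrn, the agrin gene of synaptic and vascular basement membranes, fell from 62.9 ± 13.7 to 22.6 ± 10.8 CPM (-1.48 ± 0.35 SE, edgeR adjusted p = 0.0234). Igfbp6 rose from 1.28 ± 0.599 to 7.53 ± 2.73 CPM (edgeR adjusted p = 0.0466). Prkcdbp, the gene of a cavin that joins Ptrf in caveolae, had 1, 0 and 0 counts in wtIDH1 and 23, 76 and 89 in mIDH1 (edgeR adjusted p = 0.0327), a ratio of pooled counts of 152. Its 95% exact interval, 26.9 to 6030, covers counting error only and not the larger spread between libraries. Emilin2, an elastic fibre protein of the EMILIN family, and Lamb3 missed the threshold (edgeR adjusted p = 0.0504 and 0.0615). Emilin2 was abundant, with means of 1058 CPM in wtIDH1 and 657 CPM in mIDH1. Of these 68 genes 2, 1 or 1 passed without wtIDH1 replicate 1, 2 or 3. Ecm1 was lost without wtIDH1 replicate 1 or 2 and Agrn without wtIDH1 replicate 2 or 3 (adjusted p up to 0.116), while Igfbp6 passed in 1 of 6 such fits, without mIDH1 replicate 3, and Prkcdbp in 1, without mIDH1 replicate 1.

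Of 31 genes of collagen synthesis and crosslinking 22 were tested, 1 rose and 3 fell, and the median log2 fold change was 0.32. Serpinh1, the collagen chaperone HSP47, averaged 2.48 ± 1.02 CPM in wtIDH1 libraries and rose to 13.2 ± 4.61 CPM, a log2 fold change of 2.41 ± 0.54 (SE, edgeR adjusted p = 0.0182). P4ha1, which hydroxylates prolines of collagen, fell from 204 ± 53.1 to 117 ± 11.6 CPM (edgeR adjusted p = 0.0315). Plod3, which hydroxylates lysines, fell from 188 ± 45.0 to 108 ± 11.6 CPM (edgeR adjusted p = 0.0298). Tgm2, a transglutaminase that crosslinks matrix proteins, fell from 3197 ± 1029 to 1411 ± 606 CPM (edgeR adjusted p = 0.0284), although wtIDH1 replicate 1, at 2059 CPM, lay under mIDH1 replicate 1, at 2110 CPM. Crtap and P4hb, partners of the prolyl hydroxylases, missed it (edgeR adjusted p = 0.125 and 0.161). Lox, the lysyl oxidase gene, had 0 counts in all libraries. Leaving out wtIDH1 replicate 2 or 3, or replicate 2 of mIDH1, left 0 of these genes called by edgeR, with 5, 5 and 6 at an unadjusted p under 0.05 (no other tool was run on those subsets). Plod3 was also lost without mIDH1 replicate 3 and P4ha1 without mIDH1 replicate 1.

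Of 28 matrix receptor genes all were tested, 2 rose and 2 fell, and the median log2 fold change was 0.28. Sdc4, a heparan sulfate receptor for fibronectin, was at 215, 252 and 306 CPM in wtIDH1 and at 866, 834 and 1048 CPM in mIDH1. The lowest mIDH1 library was more than 500 CPM above the highest wtIDH1 library (log2 fold change 1.83 ± 0.19 SE, edgeR adjusted p = 0.000172), and Sdc4 passed in all 15 alternative settings (adjusted p up to 0.00491). Sdc3, another syndecan, fell from 820 ± 86.5 to 476 ± 107 CPM (edgeR adjusted p = 0.0243). Itga5, the alpha chain of the main fibronectin receptor, fell from 517 ± 125 to 287 ± 60.8 CPM (edgeR adjusted p = 0.0309). Itga8, an integrin chain of mesenchymal cells, rose from 0.331 ± 0.120 to 5.05 ± 3.22 CPM (edgeR adjusted p = 0.0369). Itga1 and Ddr2, receptors for collagen, missed the threshold (edgeR adjusted p = 0.0752 and 0.119). Sdc4 was the 1 receptor gene that passed when replicate 2 or 3 of wtIDH1 or replicate 2 of mIDH1 was left out. Itga8 also did not pass without wtIDH1 replicate 1 or mIDH1 replicate 1, nor Itga5 without mIDH1 replicate 3.

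**Figure D5:**
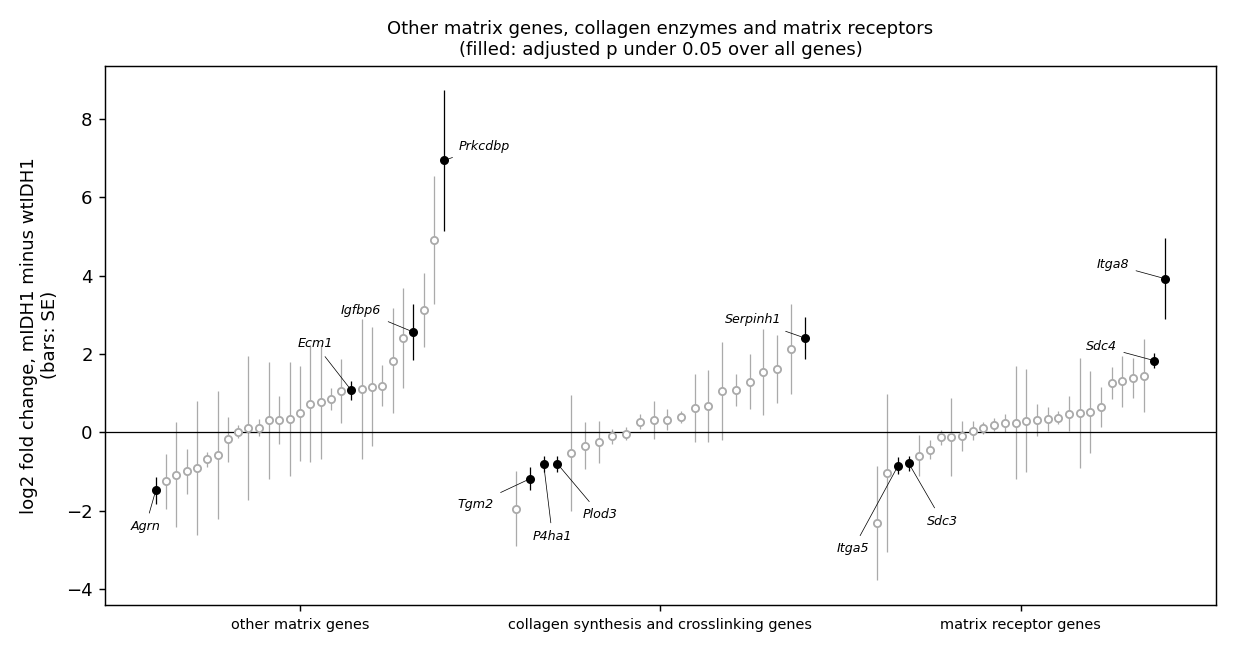
Log2 fold change (mIDH1 minus wtIDH1) with its SE for the tested genes of 3 lists around the members, 29 other matrix genes, 22 genes of collagen synthesis and crosslinking and 28 matrix receptor genes. Filled points mark the 12 genes with an edgeR adjusted p under 0.05, of which 6 lie above 0 and 6 below.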

How the data were processed

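Gene-level estimated counts for the 6 libraries, deposited by the authors as a single matrix, were the starting point, and their totals differ between libraries. The build was mm10 and the tools were Bowtie2 2.2.1 with TopHat2 2.0.13, HTSeq, Cufflinks with Cuffdiff 2.1.1, and FastQC, per the submitters' processing notes. Not given in the sources used here are their settings, the annotation release and how reads were shared between genes. Per the labels' protocols, libraries were made from polyadenylated RNA with a kit that does not mark strand. Between 1.31 and 1.61% of values were not whole (tolerance 1e-09), and all were rounded before testing.

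Genes were kept with filterByExpr (minimum count 10, minimum total 15), scaled by TMM and tested with edgeR 4.0.16 (quasi-likelihood F test, two-sided, a genotype term alone, leaving 4 residual degrees of freedom) in R 4.3.3. Adjustment was by Benjamini-Hochberg over 12950 genes with a threshold of 0.05. Log2 fold changes carry the SE of that test, and levels are mean ± SD or values per library. Exonic lengths and coordinates come from GENCODE M21 (mm10). Each pair of replicates differed by more than sampling noise (chi-square over its degrees of freedom, 50.3 to 144). Each was counted as 1 sample, although this scatter does not show that replicates were separate mice. The tests were checked on simulated counts. The members and all lists were chosen with earlier results of these data known. Every member is named, with up to 6 genes of smallest p per further list. For marker lists the rule named the most abundant genes and those at 0, and other markers were named after their values were seen. Alternatives covered scaling, filters, DESeq2 1.42.0, limma voom (limma 3.58.1), counts thinned to equal depth, a replicate block and each library left out in turn. Spi1 was not analysed here.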

Additional observations from a re-analysis of the deposited data

How the results depend on the processing

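Under DESeq2 the number of genes called rose to 1610, that of members to 14 and that of other matrix genes to 8, and with no filter 14 members were called. The replicate numbers in the labels did not pair the libraries (correlations of deviations between same-numbered libraries -0.03, 0.03 and -0.05). With a replicate block 585 genes were called, 2 other matrix genes, 1 gene of collagen synthesis, 1 receptor gene and 6 members. With 1 library left out, 334 to 1033 genes (665, 334 and 364 without wtIDH1 replicate 1, 2 and 3, and 558 without mIDH1 replicate 2), 6 to 10 members, 1 to 4 other matrix genes, 0 to 4 genes of collagen synthesis and 1 to 4 receptor genes were called. Of the 9 called members, 6 were called in all 15 alternatives, while Lamc1 was called in 10, Igfbp3 in 9 and Col6a1 in 7. No called gene named here changed sign under these alternatives. Of the 35 tested members, 5 uncalled ones changed sign in some setting. The median over tested members ranged from 0.76 to 1.05. Counting error limits members under 1 CPM, for which raw counts are given. Other causes of these shifts were not tested.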
